A study of Mus musculus with 12 samples.

Results

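The aminoacyl-tRNA synthetase genes of the mouse were followed in SCC7 cells, a squamous cell carcinoma line of the mouse, kept in 4 kinds of macrophage-conditioned medium. A list of 36 synthetase genes, 20 of the cytosolic and 16 of the mitochondrial enzymes, was matched by Ensembl identifier and mouse symbol to the 55487 genes of the count table. The older symbols are used (Aars for the gene now written Aars1, and so on), and a name ending in 2 marks the mitochondrial enzyme. All 36 genes were found and all 36 passed the filter on low counts, which 14509 genes passed. Tarsl2, a synthetase gene outside the list, is described with the related genes.

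An aminoacyl-tRNA synthetase joins an amino acid to its tRNA at the cost of ATP, so that the ribosome can read the genetic code. Mammalian cells use separate sets of enzymes in the cytosol and in mitochondria, almost all of them encoded in the nucleus by different genes, whereas Gars and Kars each supply both places. In the cytosol several synthetases are held in the multi-synthetase complex on scaffold proteins. Transcription of many cytosolic synthetase genes is known to be raised by the factor ATF4 when cells lack amino acids or suffer stress in the endoplasmic reticulum, and Wars is a classical target of interferon-gamma.

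Macrophages derived from mouse bone marrow had been kept for 24 h with interferon-gamma at 20 ng/ml (M1 CM), with interleukin-4 at 20 ng/ml (M2 CM), in 75% medium conditioned by SCC7 cells (TAM CM) or in control medium, DMEM (M0 CM). The medium they conditioned was then given to wild-type SCC7 cells for 24 h, and RNA of the SCC7 cells was sequenced in 3 libraries per medium, 12 in all. Every group, M0 CM included, had thus received macrophage medium. The model is limited to 1 cell line, and whether cytokine or tumour cell medium was still present in what the SCC7 cells received is not known from the sources used here. The labels do not name separate cultures behind the 3 libraries of a group, so the p-values reflect the variation among these libraries alone, which may be technical.

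Library totals lay between 18996937 and 22596630 counts. The cell type label of the third M2 CM library reads melanoma, unlike the other 11. That library had a summed level of 6.80 CPM over 7 melanocyte genes, of which Mitf alone gave 6.51 CPM. The other M2 CM libraries had sums of 5.57 and 7.34 CPM. The counts of synthetase genes called in comparisons with M2 CM are also given without the third library. Epithelial keratins Krt8 and Krt18 were present, but the squamous keratins Krt5 and Krt14 averaged at most 0.0709 CPM in any group and Epcam was at 0 throughout. Both kinds of marker moved with the media. The 9 epithelial genes summed to 167 to 169.8 CPM in M1 CM, 679 to 757 CPM in M2 CM, 90.7 to 100.5 CPM in TAM CM and 359 to 389.7 CPM in M0 CM, with 2 to 4 of the 9 at 0 in a group. Krt8 and Krt18 made up most of this sum, at 453 and 263 CPM in M2 CM on average. Of 4 epithelial genes tested against M0 CM, 0 rose and 3 fell in M1 CM, and 2 rose and 0 fell in M2 CM. In TAM CM 3 fell and 1 rose, Sfn, at 1.54 CPM against 0.775 CPM in M0 CM on average. Trp63 averaged 1.07 CPM in M2 CM, not called, and 1.79 CPM in M0 CM. The 6 fibroblast genes summed to 1416 to 1510 CPM in M1 CM, 1462 to 1488 CPM in M2 CM, 1135 to 1189 CPM in TAM CM and 2463 to 2611 CPM in M0 CM, with 1 of the 6 at 0. They did not move together. Of 5 tested against M0 CM, 2 rose and 3 fell in M1 CM and in TAM CM, and 1 rose and 4 fell in M2 CM. Dcn, for 1, averaged 16.9 CPM in TAM CM and 2.82 CPM in M0 CM. Summed levels of 10 macrophage genes were 31.2 to 36.7 CPM in M1 CM, 20.6 to 23.6 CPM in M2 CM, 40.1 to 49.7 CPM in TAM CM and 22.1 to 23.0 CPM in M0 CM. Cd14 made up most of this sum, at 26.1 CPM in M1 CM, 15.9 CPM in M2 CM, 40.9 CPM in TAM CM and 17.3 CPM in M0 CM on average, while Tyrobp and C1qa were at 0 in all 12 libraries and 3 of the 10 genes were at 0 in each group. Cd68 averaged 6.99 CPM in M1 CM, 5.03 CPM in M2 CM, 2.89 CPM in TAM CM and 3.89 CPM in M0 CM. Its TAM CM and M0 CM libraries overlapped. Of 3 macrophage genes tested against M0 CM, 2 rose and 0 fell in M1 CM. In M2 CM 0 were called, and in TAM CM 1 rose and 1 fell. The part of other cells in the results was not tested, and in bulk RNA fewer cells of a type and less RNA per cell cannot be told apart.

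Levels are given as CPM, read counts scaled for depth, on library sizes adjusted by the trimmed mean of M values (TMM). A gene is called higher or lower where edgeR's quasi-likelihood test gave a Benjamini-Hochberg adjusted p under 0.05 over all 14509 genes. Fold changes are log2 values with their standard error (SE). Comparisons against M0 CM share the same M0 CM libraries and are therefore not independent of each other.

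Most cytosolic synthetase genes were higher in each of the 3 media than in M0 CM, with the largest median change in TAM CM. The median changes of the mitochondrial genes were smaller, with calls in both directions in M1 CM and TAM CM and rises alone in M2 CM. The 20 cytosolic genes together held 6205 ± 191 CPM in M1 CM, 4980 ± 39.3 CPM in M2 CM, 9098 ± 142 CPM in TAM CM and 4121 ± 35.0 CPM in M0 CM (SD, n = 3 each). The sums of the 4 groups did not overlap, and the ratio to M0 CM was 1.51 for M1 CM, 1.21 for M2 CM and 2.21 for TAM CM. The 16 mitochondrial genes together held 496 ± 8.55 CPM in M1 CM, 505 ± 8.80 CPM in M2 CM, 521 ± 9.21 CPM in TAM CM and 471 ± 4.88 CPM in M0 CM (SD, n = 3 each), ratios of 1.05, 1.07 and 1.11. The mitochondrial ratios are small and depend on the TMM scaling, and sums without it are not given here. Scaled by library sizes alone, the mitochondrial median log2 fold change was -0.07 (M1 CM), -0.01 (M2 CM) and 0.11 (TAM CM). With TMM these medians were -0.00, 0.04 and 0.20. Relative to TMM-scaled library sizes, the cytosolic set made up 0.910% in TAM CM, against 0.412% in M0 CM.

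Between M1 CM and M0 CM, 53.4% of all genes tested were called, 27.7% higher and 25.6% lower. Of the cytosolic genes 16 rose and 2 fell, with a median log2 fold change of 0.57. Of the mitochondrial genes 4 rose, 3 fell and 9 were not called, with a median of -0.00, beside a median of 0.01 over all genes. Scaling by library sizes alone, without TMM, the split over all genes was 3219 higher and 4626 lower in M1 CM (4023 and 3719 with TMM), and that of the mitochondrial genes was 1 higher and 4 lower.

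Between M2 CM and M0 CM, 39.4% of all genes were called, 21% higher and 18.5% lower. In M2 CM 19 cytosolic genes rose and 0 fell, with a median log2 fold change of 0.25. Of the mitochondrial genes 4 rose, 0 fell and 12 were not called, with a median of 0.04, and the median over all genes was -0.00. Without the third M2 CM library 18 cytosolic and 4 mitochondrial genes rose and 0 fell. With library sizes alone the split over all genes was 2201 higher and 3653 lower in M2 CM (3042 and 2681 with TMM), while 17 cytosolic genes rose and 0 fell.

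Between TAM CM and M0 CM, 70% of all genes were called, 35.1% higher and 34.9% lower. Here 17 cytosolic genes rose, 2 fell and 1 was not called, with a median log2 fold change of 1.15. Of the mitochondrial genes 9 rose, 4 fell and 3 were not called, with a median of 0.20, beside a median of 0.00 over all genes. The libraries of the 2 media did not overlap for any of the 19 cytosolic genes called, with TAM CM above M0 CM for 17 and below it for 2. Over all genes tested, TAM CM lay above M0 CM without overlap for 36.7% and below it for 36.4%. With library sizes alone the split over all genes was 4300 higher and 5891 lower in TAM CM (5089 and 5067 with TMM). The median over all genes was then -0.09. Of the mitochondrial genes 8 then rose and 4 fell, with a median of 0.11, and 16 cytosolic genes rose and 2 fell.

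**Figure D1:**
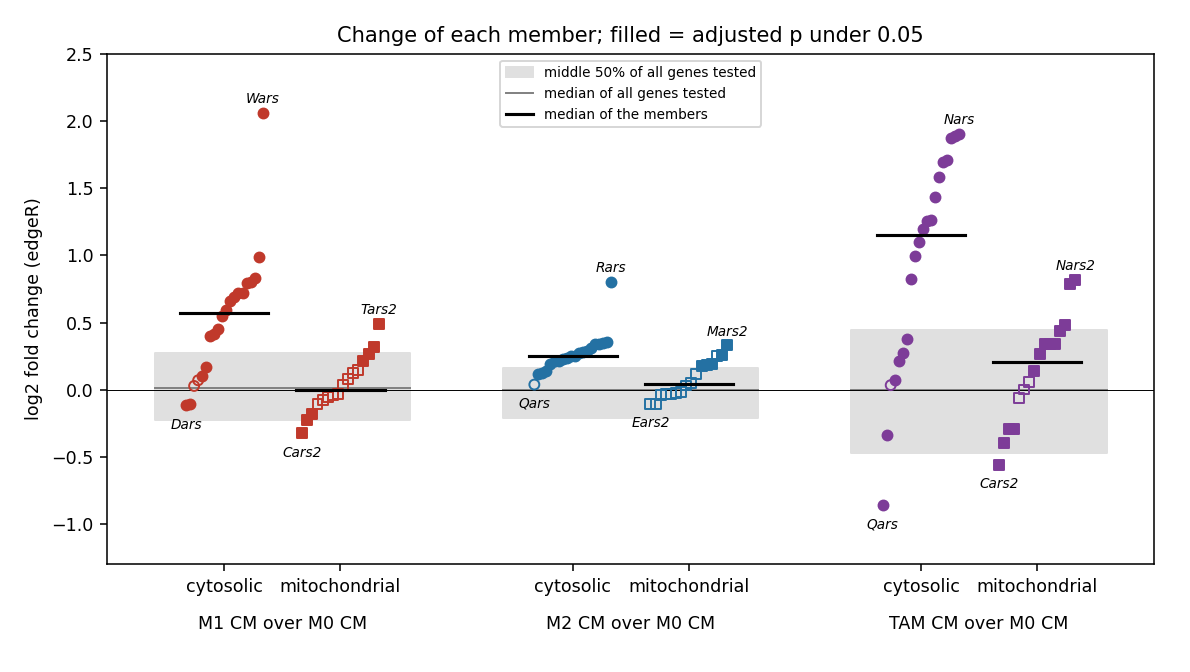
The log2 fold change of each of the 36 genes over M0 CM is plotted on the vertical axis, with circles for cytosolic and squares for mitochondrial genes, filled where the adjusted p was under 0.05, and with the middle 50% of all 14509 genes in grey. The median of the cytosolic genes (black bar) lies at 0.57 for M1 CM, 0.25 for M2 CM and 1.15 for TAM CM, and that of the mitochondrial genes at -0.00, 0.04 and 0.20.

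Promoter sequence was looked up in RefSeq (GRCm38.p6) for the 36 genes, and 27 had an entry, 13 cytosolic and 14 mitochondrial. The 9 without one, which were not searched, were Cars, Hars, Lars, Nars, Rars, Vars, Wars, Hars2 and Pars2. The 250 bases before the start were searched on both strands for TGATGNAA, the composite element bound by ATF4 and C/EBP factors. It was present in 3 of the 13 cytosolic promoters (23.1%), those of Aars, Gars and Tars, in 0 of the 14 mitochondrial ones, and in 1056 of 27025 genes (3.91%). Each of the 3 copies lies on the reverse strand, and they begin 112 bases (Aars), 30 bases (Gars) and 15 bases (Tars) before the start. These 3 genes rose in all 3 media. So did Eprs, Farsb, Iars, Kars, Mars, Sars and Yars, whose searched promoters held no copy. Dars, Farsa and Qars, also without a copy, did not rise in all 3. A link between the element and the rise was not tested. The stretches around the 3 copies are 30 bases long. They lie at chr8:111033715-111033744 on the plus strand (Aars), chr6:55037956-55037985 on the plus strand (Gars) and chr15:11399659-11399688 on the minus strand (Tars), and capitals mark the element as read on the strand of the gene.
Aars: tagctttcttgagcaTTGCATCAgccgagc
Gars: ggcctggctgcgctaTTTCATCAtgcaccg
Tars: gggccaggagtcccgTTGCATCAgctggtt
The wider promoters of Gars (chr6:55037751-55038000, plus strand) and Tars (chr15:11399666-11399908, minus strand) show where the element sits, close to the end nearest the gene.
Gars promoter: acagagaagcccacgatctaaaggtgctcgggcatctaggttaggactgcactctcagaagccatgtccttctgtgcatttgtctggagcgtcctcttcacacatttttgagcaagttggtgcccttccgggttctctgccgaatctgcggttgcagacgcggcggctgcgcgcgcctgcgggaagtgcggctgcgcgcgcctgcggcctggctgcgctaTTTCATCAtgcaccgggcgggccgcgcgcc
Tars promoter: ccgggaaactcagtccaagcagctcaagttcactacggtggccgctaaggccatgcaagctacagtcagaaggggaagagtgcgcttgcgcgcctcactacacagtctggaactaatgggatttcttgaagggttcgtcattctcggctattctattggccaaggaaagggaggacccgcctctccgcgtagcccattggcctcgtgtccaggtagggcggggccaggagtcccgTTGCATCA
Other motifs were counted in the same windows. The E-box CACGTG was present in 3 of 13 cytosolic promoters (Aars, Farsb and Iars), 0 of 14 mitochondrial promoters and 6.86% of all genes. The interferon-stimulated response element was found in 1 cytosolic promoter (Qars), 0 mitochondrial ones and 3.46% of all genes. In Aars the E-box and the ATF4 and C/EBP element begin 146 and 112 bases before the start and do not overlap. Of the 250 window bases, 202 in Aars, both of these elements included, and all 250 in Qars lie in exons annotated by GENCODE. A match describes letters and is no measure of binding.

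**Figure D2:**
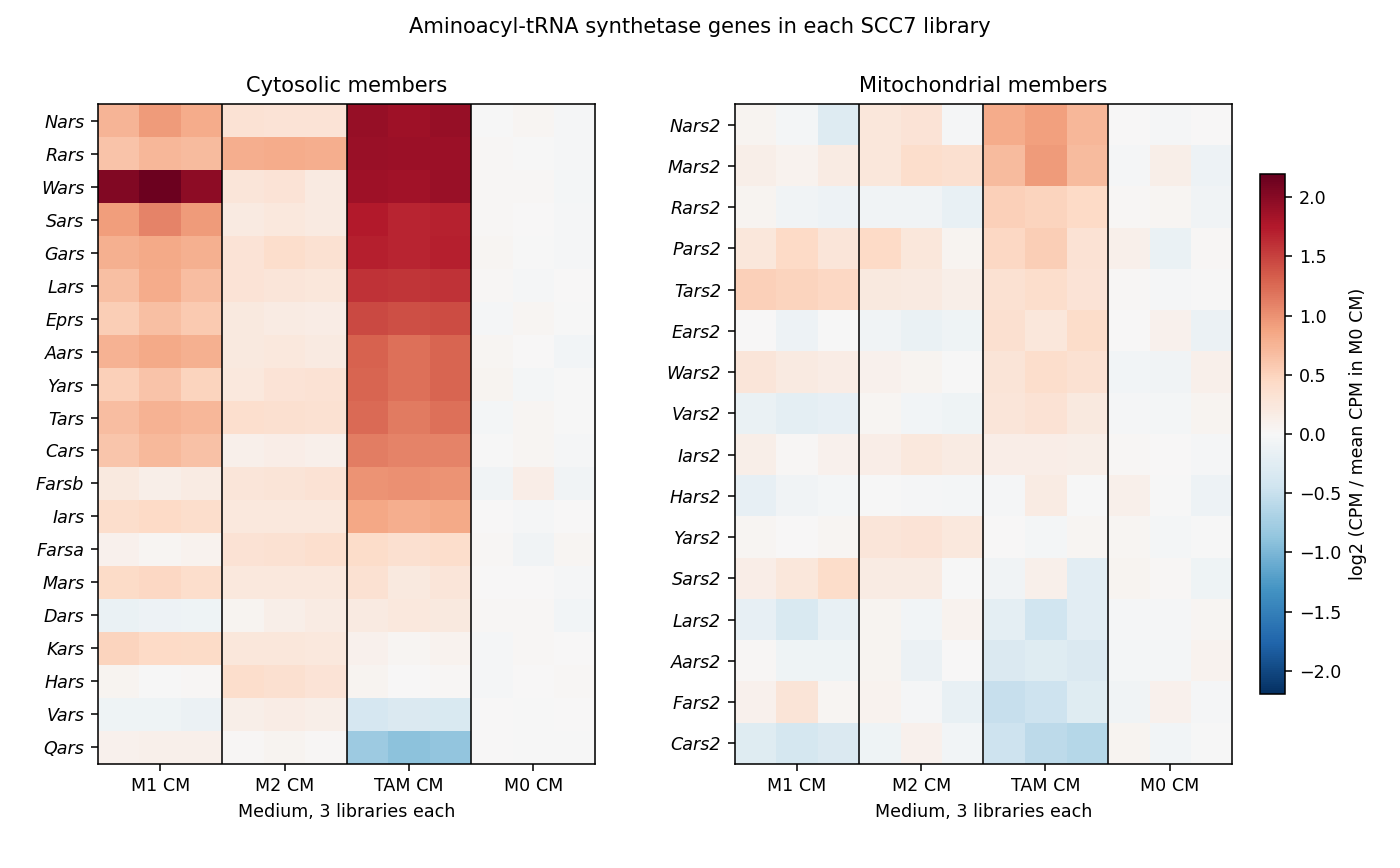
Each cell of the map is 1 gene in 1 library, coloured by log2 of its CPM over the mean CPM in M0 CM, with the 20 cytosolic genes on the left and the 16 mitochondrial genes on the right, in order of the change in TAM CM. The TAM CM columns are in shades of red for the 17 cytosolic genes called higher and blue for Vars and Qars, and mitochondrial genes show paler colours of both kinds.

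The largest changes of cytosolic genes were rises in TAM CM and the rise of Wars in M1 CM. The 6 genes with the largest log2 fold change against M0 CM in any medium were Wars, Nars, Rars, Sars, Gars and Lars, which charge tRNAs with tryptophan, asparagine, arginine, serine, glycine and leucine. Nars, Rars, Sars, Gars and Lars each had their highest level in TAM CM, from 2.99-fold to 3.74-fold the M0 CM level.

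Nars, the asparagine enzyme, had 511, 584 and 539 CPM in M1 CM, 382, 378 and 377 CPM in M2 CM, 1159, 1114 and 1156 CPM in TAM CM, and 304, 314 and 299 CPM in M0 CM. The TAM CM libraries stood far above all others and no 2 groups overlapped. The difference between TAM CM and M0 CM was 3.74-fold in edgeR's quasi-likelihood test (log2 fold change 1.90, SE 0.035, adjusted p = 5.78e-39), and M1 CM (0.83 against M0 CM) and M2 CM (0.31) were called higher as well. Nars supplied 12.6% of the summed cytosolic CPM in TAM CM, against 7.42% in M0 CM. Sars, the serine enzyme, had 466, 523 and 469.9 CPM in M1 CM, 282, 289.6 and 281 CPM in M2 CM, 819.8, 788 and 798 CPM in TAM CM, and 249, 246 and 241 CPM in M0 CM. Its groups lay apart in the same order, TAM CM above M1 CM above M2 CM above M0 CM. The edgeR quasi-likelihood test gave a rise in TAM CM (log2 fold change 1.71, SE 0.035, adjusted p = 4.24e-39) and in M1 CM (log2 fold change 0.99, SE 0.035, adjusted p = 5.05e-29).

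Gars, which charges glycine tRNAs in cytosol and mitochondria from 1 gene, had 386, 400.2 and 388 CPM in M1 CM, 277, 293 and 284 CPM in M2 CM, 736, 718 and 734 CPM in TAM CM, and 231, 224 and 219.8 CPM in M0 CM. No 2 groups overlapped, and TAM CM was highest. By edgeR's quasi-likelihood test the rise over M0 CM was 3.24-fold in TAM CM (log2 fold change 1.70, SE 0.032, adjusted p = 4.84e-41), 1.74-fold in M1 CM (log2 fold change 0.80, SE 0.032, adjusted p = 4.84e-27) and 1.27-fold in M2 CM (log2 fold change 0.34, SE 0.032, adjusted p = 1.63e-12). Gars is the gene whose ATF4 and C/EBP element is printed above, 30 bases before its start. Lars, the leucine enzyme and a member of the multi-synthetase complex, had 321, 355 and 324 CPM in M1 CM, 248, 243 and 240.0 CPM in M2 CM, 608, 599 and 604 CPM in TAM CM, and 205, 198 and 202 CPM in M0 CM. All 4 groups were again separate. Against M0 CM, edgeR's quasi-likelihood test gave log2 fold change 1.58, SE 0.034, adjusted p = 8.69e-39 for TAM CM.

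Rars, the arginine enzyme of the complex, had 315, 341 and 334 CPM in M1 CM, 356, 362 and 355 CPM in M2 CM, 760.4, 754 and 756 CPM in TAM CM, and 208, 204 and 202 CPM in M0 CM. Here the M2 CM libraries lay above those of M1 CM, and all 3 media were far above M0 CM. Rars was the cytosolic gene with the largest change in M2 CM (log2 fold change 0.80, SE 0.032, adjusted p = 2.71e-26), and by edgeR's quasi-likelihood test it was also higher in M2 CM than in M1 CM (log2 fold change 0.12, SE 0.032, adjusted p = 0.00135). In TAM CM it stood 3.70-fold over M0 CM (log2 fold change 1.89, SE 0.032, adjusted p = 1.35e-42). Of the other 19 cytosolic genes, 18 rose in M2 CM and all of these by less than Rars, from a log2 fold change of 0.12 for Cars to 0.35 for Tars.

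Eprs, a bifunctional gene that charges both glutamate and proline tRNAs, had 498, 542 and 506 CPM in M1 CM, 394, 389 and 384 CPM in M2 CM, 928, 910.4 and 925 CPM in TAM CM, and 334, 349.6 and 339 CPM in M0 CM. Its 4 groups were separate, with TAM CM the highest. The log2 fold change in TAM CM was 1.43 (edgeR quasi-likelihood adjusted p = 4.10e-38). The next largest rises in TAM CM were those of Aars (1.26), Yars (1.26), Tars (1.20), Cars (1.10), Farsb (0.99) and Iars (0.83), the enzymes of alanine, tyrosine, threonine, cysteine, phenylalanine (beta chain) and isoleucine.

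**Figure D3:**
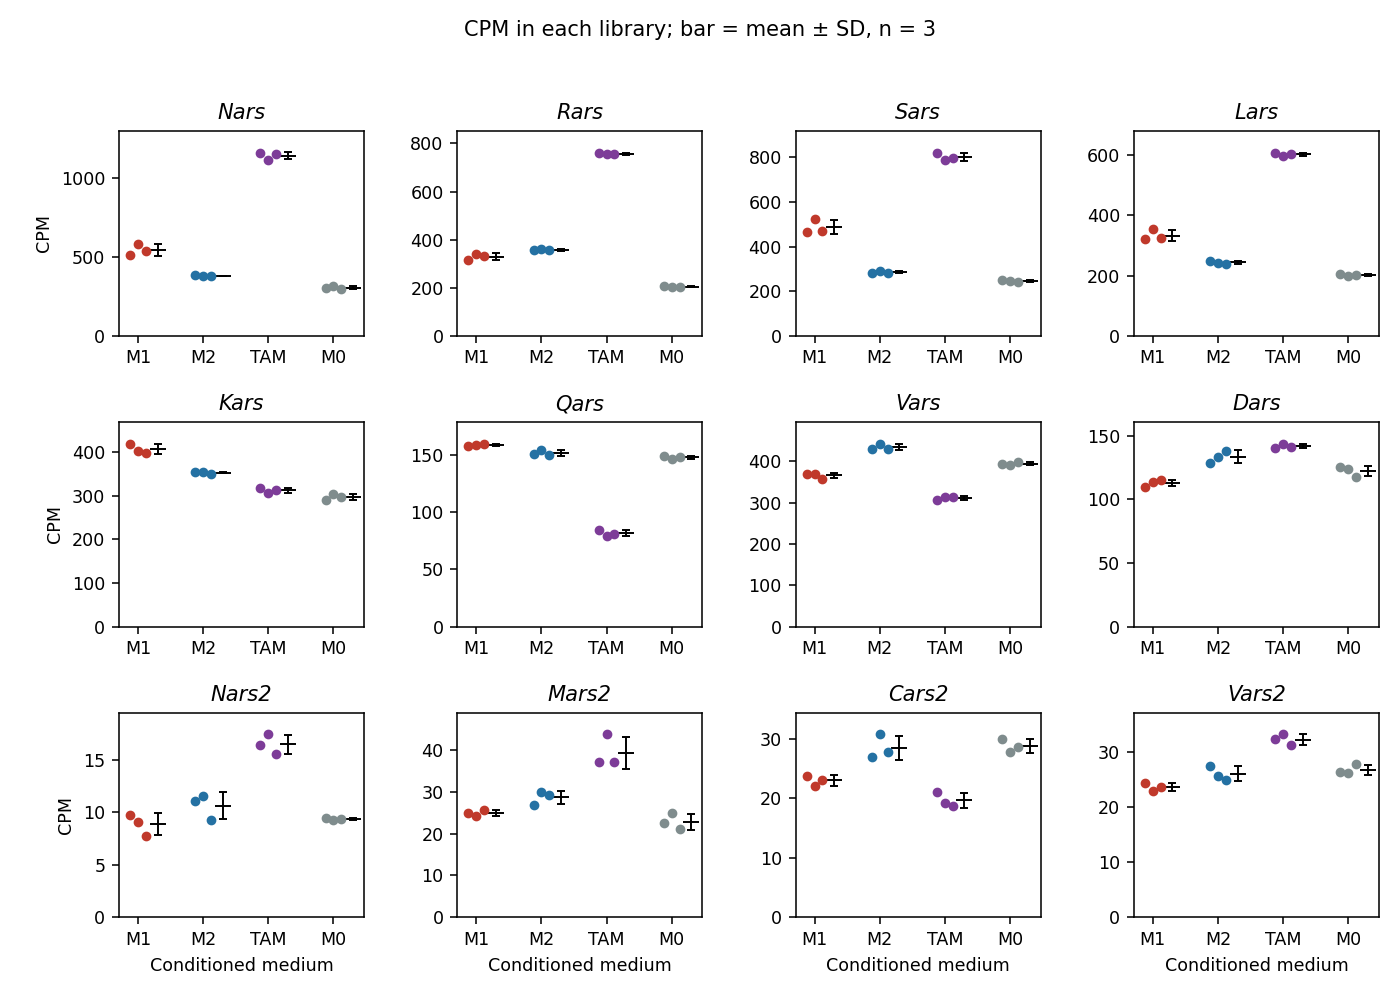
CPM of 12 synthetase genes is plotted for each library (points) with mean ± SD of 3 libraries beside them, with the 4 media on the horizontal axis and the vertical axes starting at 0. Nars, Rars, Sars and Lars are highest in TAM CM, Qars falls to 79.3 to 84.8 CPM there, and Nars2 and Mars2 rise in TAM CM from much lower levels.

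A fixed order of the media was common among cytosolic genes. In 10 of the 20 (Aars, Cars, Eprs, Gars, Iars, Lars, Nars, Sars, Tars and Yars) TAM CM was above M1 CM, M1 CM above M2 CM and M2 CM above M0 CM, with each of these steps called by edgeR's quasi-likelihood test. None of the 16 mitochondrial genes had every step called (0 of 16), and 1.64% of all genes tested did. The means of Pars2 and Wars2 followed the same order, but not every step was called. Higher calls in all 3 media against M0 CM were found for 15 of the 20 cytosolic genes, for 1 of the 16 mitochondrial genes, Tars2, and for 6.71% of all genes tested. Most mitochondrial genes had lower CPM than the cytosolic ones, and the part of this in both counts was not tested. The Cars step between M2 CM and M0 CM was small and was lost without the third M0 CM library (log2 fold change 0.10, adjusted p = 0.0558).

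Wars, the tryptophan enzyme, departed from that order. Wars lies on chr12:108860030-108894174, minus strand, and had 255, 278 and 243 CPM in M1 CM, 74.6, 76.7 and 70.9 CPM in M2 CM, 225, 224 and 232 CPM in TAM CM, and 63.1, 63.3 and 59.9 CPM in M0 CM. The M1 CM and TAM CM libraries were both far above the others, M1 CM was highest, and no 2 groups overlapped. Against M0 CM, Wars was 4.16-fold higher in M1 CM by edgeR's quasi-likelihood test (log2 fold change 2.06, SE 0.042, adjusted p = 3.36e-38) and 3.66-fold higher in TAM CM (log2 fold change 1.87, SE 0.042, adjusted p = 1.30e-36), and the change in M2 CM was 0.25. TAM CM was lower than M1 CM (log2 fold change -0.19, SE 0.038, adjusted p = 2.44e-05), which among cytosolic genes was also called for Kars, Mars, Qars and Vars.

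The 5 interferon response genes set beside Wars mostly lacked its rise in TAM CM. All 5 rose in M1 CM, with a median log2 fold change of 3.60, while in TAM CM 1 rose and 3 fell, with a median of -0.25. Psmb9, an immunoproteasome subunit, had 283, 259 and 254 CPM in M1 CM, 20.7, 21.6 and 16.8 CPM in M2 CM, 10.6, 11.5 and 9.57 CPM in TAM CM, and 20.5, 22.1 and 22.9 CPM in M0 CM. Only the M1 CM libraries were high, and the TAM CM libraries were below all those of M0 CM (log2 fold change -1.04, SE 0.093, adjusted p = 3.20e-10 by edgeR's quasi-likelihood test). Tap1, a peptide transporter whose gene overlaps Psmb9 on the opposite strand, fell in TAM CM (log2 fold change -0.47), and both rose in M1 CM (3.60 for Psmb9 and 3.70 for Tap1). The gene that rose in TAM CM was Irf9, an interferon regulatory factor (log2 fold change 0.40).

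The amino acid response genes were high in both media in which Wars was high. Of these 21 genes 17 rose and 1 fell in M1 CM, 14 rose and 5 fell in M2 CM, and 20 rose and 1 fell in TAM CM, with median log2 fold changes of 0.85, 0.36 and 2.17 against M0 CM. Asns, asparagine synthetase, had 251, 284 and 269 CPM in M1 CM, 117, 122 and 122 CPM in M2 CM, 536, 509 and 525 CPM in TAM CM, and 85.6, 86.3 and 85.3 CPM in M0 CM. Its groups did not overlap, with TAM CM highest, then M1 CM, M2 CM and M0 CM. Slc3a2, the shared heavy chain of amino acid transporters, had a log2 fold change of 3.03 in TAM CM, and Phgdh, the entry enzyme of serine synthesis, one of 1.76. Atf4 itself had 859.8, 976 and 860.3 CPM in M1 CM, 490.5, 483 and 478 CPM in M2 CM, 1336, 1306 and 1298 CPM in TAM CM, and 408, 418 and 389.5 CPM in M0 CM. Its RNA followed the same order without overlap (log2 fold change 1.70, SE 0.038, adjusted p = 9.23e-28 for TAM CM and log2 fold change 1.15, SE 0.037, adjusted p = 1.06e-22 for M1 CM by edgeR's quasi-likelihood test). The gene that fell in TAM CM was Eif2ak4, the kinase that senses uncharged tRNA, at -0.59. The link between these genes and the synthetases was not tested.

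**Figure D4:**
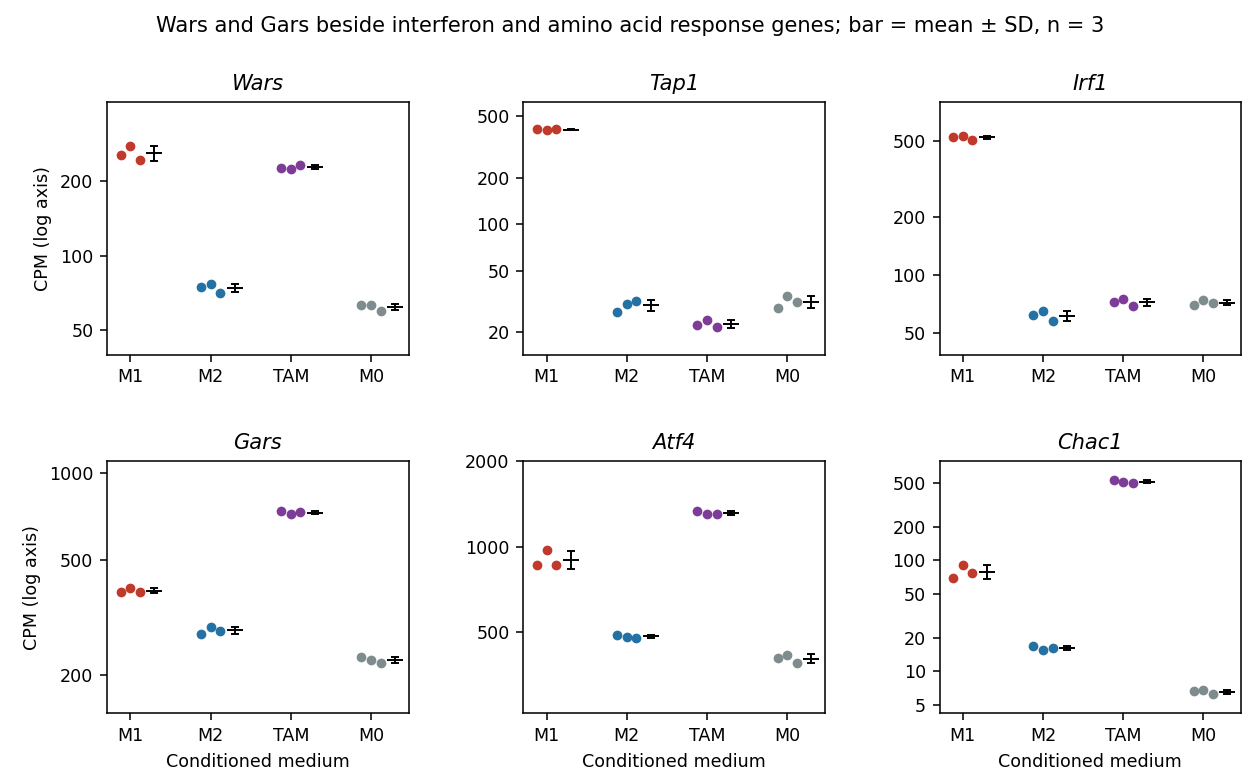
CPM on log axes is shown per library, with mean ± SD of 3 libraries, for Wars beside the interferon genes Tap1 and Irf1 (upper row) and for Gars beside the amino acid response genes Atf4 and Chac1 (lower row). Wars is high in M1 CM and TAM CM, Tap1 and Irf1 are high in M1 CM alone of the 4 media, and Gars, Atf4 and Chac1 step down in the order TAM CM, M1 CM, M2 CM, M0 CM.

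The remaining cytosolic genes rose less in TAM CM (Farsa, Mars, Dars and Kars), were not called there (Hars) or fell (Vars and Qars). Dars, Qars and Vars were each called in opposite directions in different media. Qars, the glutamine enzyme of the complex, had 158, 159 and 160.1 CPM in M1 CM, 151, 155 and 150.2 CPM in M2 CM, 84.8, 79.3 and 81.2 CPM in TAM CM, and 149, 147 and 148 CPM in M0 CM. The TAM CM libraries were low and stood apart, at 0.551 of the M0 CM mean. The fall in TAM CM (log2 fold change -0.86, SE 0.037, adjusted p = 2.64e-26 by edgeR's quasi-likelihood test) was the largest of any cytosolic gene, against a rise in M1 CM (log2 fold change 0.10, SE 0.035, adjusted p = 0.00966) that was lost with library sizes alone (log2 fold change 0.04, adjusted p = 0.381). Mitochondria have no separate glutamine enzyme in mammals and reach the charged tRNA through the amidotransferase genes described below.

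Vars, the valine enzyme, had 369, 369 and 358 CPM in M1 CM, 429, 442 and 430.0 CPM in M2 CM, 306, 315 and 313 CPM in TAM CM, and 394, 390.0 and 397 CPM in M0 CM. M2 CM was above M0 CM, and M1 CM and TAM CM were below it, with no overlap between groups. By edgeR's quasi-likelihood test it fell in TAM CM (log2 fold change -0.34, SE 0.031, adjusted p = 4.40e-14) and in M1 CM (log2 fold change -0.11, SE 0.03, adjusted p = 0.00253) and rose in M2 CM (log2 fold change 0.14, SE 0.03, adjusted p = 1.75e-04). Vars gave the largest share of the cytosolic sum in M0 CM, 9.55%, and 3.42% in TAM CM. Dars, the aspartate enzyme, had 110.1, 114 and 115 CPM in M1 CM, 128, 134 and 138 CPM in M2 CM, 140.4, 144 and 141 CPM in TAM CM, and 125, 124 and 118 CPM in M0 CM. Its M1 CM libraries were the lowest and its TAM CM libraries the highest. By edgeR's quasi-likelihood test it fell in M1 CM (log2 fold change -0.12, SE 0.037, adjusted p = 0.00723) and rose in M2 CM (log2 fold change 0.12, SE 0.037, adjusted p = 0.00563) and TAM CM (log2 fold change 0.21, SE 0.037, adjusted p = 1.50e-06). The fall in M1 CM was lost without the first M0 CM library (log2 fold change -0.10, adjusted p = 0.0503). The rise in M2 CM was lost without the third M2 CM library (log2 fold change 0.09, adjusted p = 0.0763) and without the third M0 CM library (log2 fold change 0.09, adjusted p = 0.0758).

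Kars, which charges lysine tRNAs in both compartments, had 419.7, 402 and 398 CPM in M1 CM, 354, 354 and 351 CPM in M2 CM, 319, 306 and 312 CPM in TAM CM, and 291, 304 and 297 CPM in M0 CM. M1 CM was highest and M2 CM next, and the TAM CM libraries lay just above those of M0 CM. The rise was clear in M1 CM by edgeR's quasi-likelihood test (log2 fold change 0.45, SE 0.031, adjusted p = 1.50e-17) and marginal in TAM CM (log2 fold change 0.07, SE 0.032, adjusted p = 0.0412). The TAM CM call was lost without the first TAM CM library (log2 fold change 0.06, adjusted p = 0.159) and without the third (log2 fold change 0.07, adjusted p = 0.0771). It was also lost without the first M0 CM library (log2 fold change 0.05, adjusted p = 0.186) and without the third (log2 fold change 0.07, adjusted p = 0.0938), and with library sizes alone its sign turned (log2 fold change -0.03, adjusted p = 0.458). Gars and Kars, the 2 genes that supply both compartments, thus had log2 fold changes of 1.70 and 0.07 in TAM CM.

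Hars, the histidine enzyme, was called only in M2 CM against M0 CM, at 116 ± 2.80 CPM in M1 CM, 144 ± 4.04 CPM in M2 CM, 116 ± 2.16 CPM in TAM CM and 114 ± 1.75 CPM in M0 CM (SD, n = 3 each). Farsa and Farsb encode the 2 chains of the phenylalanine enzyme. In TAM CM Farsb had a log2 fold change of 0.99 and Farsa one of 0.38. In M1 CM Farsa was not called (0.07), and the Farsb value of 0.17 was called with overlapping libraries and was lost without the first M0 CM library (log2 fold change 0.13, adjusted p = 0.0565). Mars, the methionine enzyme, was highest in M1 CM (224 ± 5.18 CPM), with 196 ± 0.219 CPM in M2 CM, 202 ± 8.55 CPM in TAM CM and 167 ± 2.35 CPM in M0 CM (SD, n = 3 each).

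Among the mitochondrial genes the median changes were smaller. The 4 with the largest change against M0 CM were Nars2, Mars2, Cars2 and Tars2. Nars2, the mitochondrial asparagine enzyme, had 9.76, 9.04 and 7.73 CPM in M1 CM, 11.1, 11.6 and 9.22 CPM in M2 CM, 16.4, 17.4 and 15.6 CPM in TAM CM, and 9.44, 9.25 and 9.40 CPM in M0 CM. Its TAM CM libraries stood above all others, and M1 CM, M2 CM and M0 CM ran into each other. The rise in TAM CM by edgeR's quasi-likelihood test was 1.76-fold (log2 fold change 0.82, SE 0.10, adjusted p = 8.67e-10). Mars2, the methionine enzyme, had 24.9, 24.1 and 25.7 CPM in M1 CM, 26.9, 29.8 and 29.2 CPM in M2 CM, 37.0, 43.7 and 37.1 CPM in TAM CM, and 22.4, 24.8 and 21.1 CPM in M0 CM. TAM CM was again separate and highest, and M2 CM lay above M0 CM. The edgeR quasi-likelihood test gave log2 fold change 0.79, SE 0.07, adjusted p = 2.82e-14 for TAM CM and log2 fold change 0.33, SE 0.072, adjusted p = 1.92e-04 for M2 CM.

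Cars2, the cysteine enzyme, had 23.8, 22.0 and 23.1 CPM in M1 CM, 26.8, 30.7 and 27.7 CPM in M2 CM, 21.0, 19.2 and 18.7 CPM in TAM CM, and 30.0, 27.7 and 28.6 CPM in M0 CM. TAM CM was lowest and M1 CM next, while M2 CM and M0 CM overlapped. It fell by edgeR's quasi-likelihood test in TAM CM (log2 fold change -0.56, SE 0.072, adjusted p = 1.77e-09) and in M1 CM (log2 fold change -0.33, SE 0.07, adjusted p = 8.87e-05), in contrast to cytosolic Cars, which rose in both. Tars2, the threonine enzyme, had 95.0, 93.6 and 90.5 CPM in M1 CM, 76.9, 76.0 and 72.3 CPM in M2 CM, 83.9, 86.5 and 81.8 CPM in TAM CM, and 67.7, 64.9 and 66.2 CPM in M0 CM. M1 CM was highest, M0 CM lowest and no 2 groups overlapped. It rose in M1 CM (log2 fold change 0.49, SE 0.043, adjusted p = 3.57e-14 by edgeR's quasi-likelihood test), in M2 CM (0.18) and in TAM CM (0.34).

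Wars2, the mitochondrial tryptophan enzyme, had 26.1, 24.9 and 24.5 CPM in M1 CM, 23.2, 22.8 and 21.7 CPM in M2 CM, 26.5, 28.6 and 27.3 CPM in TAM CM, and 21.0, 20.7 and 23.6 CPM in M0 CM. Its M1 CM and TAM CM libraries lay above those of M0 CM. The edgeR quasi-likelihood test gave log2 fold change 0.21, SE 0.07, adjusted p = 0.0099 for M1 CM and log2 fold change 0.34, SE 0.07, adjusted p = 3.29e-05 for TAM CM, far below the changes of Wars in the same media. The M1 CM call was lost without the first M1 CM library (log2 fold change 0.18, adjusted p = 0.0501), the first M0 CM library (log2 fold change 0.18, adjusted p = 0.0533) or the second M0 CM library (log2 fold change 0.18, adjusted p = 0.0562). Vars2, the valine enzyme, had 24.4, 23.0 and 23.7 CPM in M1 CM, 27.6, 25.7 and 25.0 CPM in M2 CM, 32.4, 33.3 and 31.3 CPM in TAM CM, and 26.5, 26.2 and 27.9 CPM in M0 CM. TAM CM was highest and M1 CM lowest, without overlap with M0 CM in either case. It was called lower in M1 CM (log2 fold change -0.18, SE 0.066, adjusted p = 0.0201) and higher in TAM CM (log2 fold change 0.27, SE 0.064, adjusted p = 2.44e-04) by edgeR's quasi-likelihood test, the reverse of Vars in TAM CM. The M1 CM call was lost without the second M1 CM library (log2 fold change -0.16, adjusted p = 0.0747) or the third M0 CM library (log2 fold change -0.15, adjusted p = 0.0872).

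Others of the mitochondrial set that rose in TAM CM were Rars2 (0.48), Pars2 (0.44), Ears2 (0.34) and Iars2 (0.14), for arginine, proline, glutamate and isoleucine. Those that fell there besides Cars2 were Fars2 (-0.40), Aars2 (-0.30) and Lars2 (-0.29), for phenylalanine, alanine and leucine. Hars2 (0.05), Sars2 (-0.06) and Yars2 (0.00) were not called in TAM CM. Yars2 and Iars2 rose in M2 CM (0.26 and 0.19). In M1 CM Pars2 (0.32) and Sars2 (0.26) were called higher, both at under 20 CPM in every library. Pars2 was lost without the second M1 CM library (log2 fold change 0.25, adjusted p = 0.155), the second M0 CM library (log2 fold change 0.25, adjusted p = 0.158) or the third (log2 fold change 0.33, adjusted p = 0.0632). Sars2 was lost without the third M1 CM library (log2 fold change 0.19, adjusted p = 0.105) or the third M0 CM library (log2 fold change 0.22, adjusted p = 0.0714). The 7 mitochondrial calls in M1 CM numbered 4 without the third M0 CM library.

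Levels between genes were compared per kilobase of exon, counted over all annotated exons of a gene together. This length can exceed that of the transcripts expressed, so close levels of different genes are no firm order. Cytosolic genes had a median of 60.4 CPM per kilobase in M1 CM, 48.4 in M2 CM, 62.5 in TAM CM and 40.6 in M0 CM. For mitochondrial genes the median was 4.29 CPM per kilobase in M1 CM, 4.32 in M2 CM, 4.39 in TAM CM and 4.17 in M0 CM. In every medium the mean of the lowest cytosolic gene lay above that of the highest mitochondrial gene. In TAM CM the lowest cytosolic gene was Qars at 12.4 CPM per kilobase, just above the highest mitochondrial gene, Tars2, at 12.1. In M0 CM the cytosolic genes ran from Farsb at 16.9 to Gars at 72.1 CPM per kilobase, and the mitochondrial genes from Nars2 at 1.34 to Iars2 at 10.3. Nars was the highest of all in TAM CM, at 262 ± 5.76 CPM per kilobase, against 70.2 ± 1.70 in M0 CM (SD, n = 3 each).

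Cytosolic and mitochondrial genes for the same amino acid were set against each other in 17 pairings, with Eprs paired to Ears2 and Pars2 and both chains of the cytosolic phenylalanine enzyme to Fars2. The ratio per kilobase had a median of 10.1 in M1 CM, 8.60 in M2 CM, 15.0 in TAM CM and 6.66 in M0 CM. In TAM CM it was above that of M0 CM for 14 pairings and below for 3, with a median log2 change of 1.09. In M1 CM it was above for 16 and below for 1 (median 0.52), and in M2 CM above for 15 and below for 2 (median 0.18). The pairings were counted by sign alone, whatever the size of the change beside the spread of the libraries. These ratios are a description and were not tested.

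The widest shift was that of Lars over Lars2, at 41.0 in TAM CM and 11.2 in M0 CM, a log2 change of 1.88. Sars over Sars2 stood at 37.6 in TAM CM and 11.0 in M0 CM. For Nars over Nars2 the ratio was 111 in TAM CM and 52.2 in M0 CM, the largest ratio of any pairing in both media, although both genes rose. Yars over Yars2 had the smallest ratio of any pairing in each of these media, 4.91 in TAM CM and 2.06 in M0 CM. Lower in TAM CM than in M0 CM were the ratios of Vars over Vars2 (log2 change -0.61), Mars over Mars2 (-0.51) and Hars over Hars2 (-0.02). The change of Hars over Hars2 was smaller than its SD of 0.14 in either medium. In M1 CM the largest change was that of Wars over Wars2, 1.84, with a ratio of 17.7 in M1 CM and 4.93 in M0 CM.

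**Figure D5:**
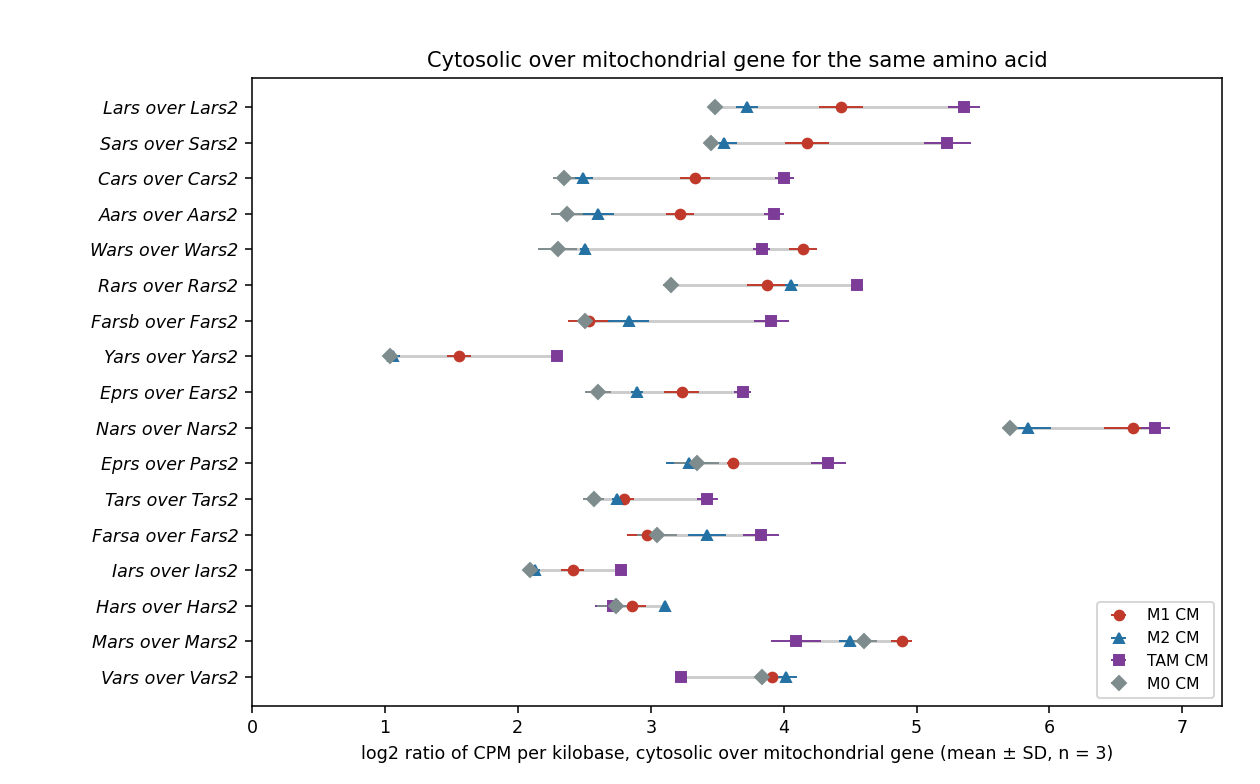
The horizontal axis gives the log2 ratio of CPM per kilobase of the cytosolic over the mitochondrial gene for 17 pairings, as mean ± SD of 3 libraries per medium, ordered by the change in TAM CM. TAM CM (squares) lies to the right of M0 CM (diamonds) in 14 pairings and to the left for Hars, Mars and Vars. The Hars shift, -0.02, is smaller than its SD in either medium.

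Within the cytosolic set the genes of the multi-synthetase complex moved less in TAM CM than the others by their medians. Of its 8 genes (Eprs, Iars, Lars, Qars, Mars, Kars, Rars and Dars) 7 rose and 1 fell in TAM CM, with a median log2 fold change of 0.55 and a range from -0.86 for Qars to 1.89 for Rars. Of the 12 other cytosolic genes 10 rose and 1 fell, with a median of 1.23 and a range from -0.34 for Vars to 1.90 for Nars. The ranges overlap almost entirely, and the difference between the medians was not tested. Class I and class II enzymes, which differ in the fold of the catalytic domain, had the same median of 1.10 in TAM CM (9 and 10 genes, with Eprs, which holds 1 domain of each class, left out).

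The 3 media were also set against each other. Between TAM CM and M1 CM, where 67.2% of all genes were called (32.8% higher and 34.4% lower), 14 cytosolic genes were higher and 5 lower in TAM CM, with a median log2 fold change of 0.45, and 6 mitochondrial genes were higher and 5 lower. Between TAM CM and M2 CM, where 68.4% were called (34.3% higher and 34.1% lower), 14 cytosolic genes were higher and 4 lower in TAM CM, with a median of 0.91, and 7 mitochondrial genes were higher and 5 lower. With the third M2 CM library left out, the cytosolic counts were 14 and 4 and the mitochondrial ones 7 and 6. Library sizes alone gave 7 mitochondrial genes higher and 7 lower in TAM CM than in M2 CM.

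Between M2 CM and M1 CM, where 56.2% of all genes were called (27.8% higher and 28.4% lower), the cytosolic set was lower in M2 CM. In it 13 genes were called lower and 6 higher, with a median log2 fold change of -0.24. The 6 were Dars, Farsa, Farsb, Hars, Rars and Vars, and with the third M2 CM library left out the counts were 13 and 5, since Farsb was no longer called (log2 fold change 0.10, adjusted p = 0.165 by edgeR's quasi-likelihood test). Wars differed most, at -1.80 (74.1 ± 2.93 CPM in M2 CM, 259 ± 17.5 CPM in M1 CM; SD, n = 3 each). Of the mitochondrial genes 6 had higher and 2 had lower calls in M2 CM, and 5 and 1 with the third M2 CM library left out. The mitochondrial total of 8 fell to 5 without the second M1 CM library and to 4 without the second M2 CM library.

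Other genes of tRNA charging were read from lists, with counts against M0 CM from the same test. The 3 scaffold genes of the multi-synthetase complex all rose in M2 CM and TAM CM, and 2 of them in M1 CM. Eef1e1 had 42.7, 49.8 and 46.1 CPM in M1 CM, 52.1, 57.5 and 48.1 CPM in M2 CM, 75.6, 70.3 and 72.9 CPM in TAM CM, and 35.8, 34.3 and 35.7 CPM in M0 CM. Its 4 groups did not all separate, since M1 CM reached into M2 CM, but all 3 media were above M0 CM, with log2 fold change 1.05, SE 0.058, adjusted p = 9.05e-21 in TAM CM by edgeR's quasi-likelihood test. Aimp1 and Aimp2 had log2 fold changes of 0.58 and 0.53 in TAM CM. Tarsl2, a cytosolic threonine enzyme related to Tars, had 17.8, 15.5 and 16.9 CPM in M1 CM, 24.9, 27.5 and 27.4 CPM in M2 CM, 11.2, 12.1 and 12.3 CPM in TAM CM, and 25.2, 25.4 and 24.8 CPM in M0 CM. Outside the list of 36, it fell in TAM CM and M1 CM, with its TAM CM libraries lowest and M1 CM next (log2 fold change -1.08, SE 0.08, adjusted p = 6.02e-17 for TAM CM by edgeR's quasi-likelihood test), whereas Tars rose in TAM CM.

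Mitochondrial partners of charging changed little. Of Qrsl1, Gatb and Gatc, the amidotransferase that makes glutaminyl-tRNA, and Mtfmt, the formyltransferase of the starter tRNA, 0 rose and 1 fell in M1 CM, 0 were called in M2 CM, and 1 rose in TAM CM. That gene was Gatc (log2 fold change 0.36, SE 0.061, adjusted p = 7.72e-07 by edgeR's quasi-likelihood test), while Qrsl1 and Mtfmt had -0.11 and 0.10. In the list of 6 proofreading and pyrophosphate genes 1 rose and 1 fell in M1 CM and in M2 CM, and 2 rose and 1 fell in TAM CM. Ppa1, the cytosolic pyrophosphatase that pulls the charging reaction forward, rose in TAM CM (0.63), as did Dtd2, which removes mischarged amino acids (0.81), and its mitochondrial counterpart Ppa2 fell (-0.25).

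Elongation factors and tRNA handling genes complete the pathway. Of 5 cytosolic elongation factor genes 5 rose in M1 CM and in M2 CM, and in TAM CM 4 rose and 1 fell, with a median log2 fold change of 0.22 there. The gene that fell was Eef2, the translocase (-0.28), while Eef1a1, which brings charged tRNA to the ribosome, had 0.25 and Eef1b2 0.26. Of 4 mitochondrial elongation factor genes 1 rose and 1 fell in M1 CM, 4 rose in M2 CM, and 1 rose and 2 fell in TAM CM. Tufm, the mitochondrial counterpart of Eef1a1, had 115, 107 and 122 CPM in M1 CM, 157, 162 and 159 CPM in M2 CM, 66.2, 62.6 and 67.4 CPM in TAM CM, and 126, 129.8 and 130.5 CPM in M0 CM. TAM CM was lowest by far and M2 CM highest, without overlap (log2 fold change -0.98, SE 0.042, adjusted p = 4.66e-26 for TAM CM by edgeR's quasi-likelihood test). Tsfm and Gfm1 had 0.29 and -0.17 in TAM CM. Of 9 genes of tRNA maturation and export 5 rose and 2 fell in M1 CM, 6 rose and 0 fell in M2 CM, and 7 rose and 0 fell in TAM CM. Xpot, the tRNA exporter, led with a log2 fold change of 1.25 in TAM CM, with Xpo5 at 0.83 and the tRNA methyltransferase Nsun2 at 0.65.

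Some of these genes share sequence with others, and since the sources used here do not give the strand setting, reads of overlapping exons cannot be assigned with certainty. Iars2 and Rab3gap2 share 2034 exon bases on opposite strands, 22.9% of the Iars2 exons, and Hars and Hars2 share 195 bases, 7.97% of Hars. Summed over all libraries, Iars2 had 24444 counts and Rab3gap2 23647, and Hars had 30547 and Hars2 7375. Smaller overlaps join Cars2 to Naxd (422 bases, 5.83%), Mars to Ddit3 (68 bases, 1.99%), Fars2 to Lyrm4 (115 bases, 2.00%) and Ears2 to Ubfd1 (89 bases, 1.73%). Naxd (7839 counts) exceeded Cars2 (6245) and Ubfd1 (16366) exceeded Ears2 (4154). Ddit3 (7571) lay below Mars (49140), and Lyrm4 (1980) below Fars2 (4083). How far shared reads enter the values of these genes, Iars2 included, was not tested. Ddit3, itself an amino acid response gene, had a log2 fold change of 3.33 in TAM CM. Aars contains 1326 exon bases of Exosc6 on the same strand, 14.3% of its exons, and Exosc6 was listed at 0 in all libraries. A processed pseudogene of Iars, Gm4849, matched it over 1656 bases at 96.0% identity and held 0.231% as many counts as Iars.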

How the data were processed

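RNA of SCC7 cells was measured in 12 libraries, 3 for each of M1 CM, M2 CM, TAM CM and M0 CM, grouped by title. The deposited table holds raw read counts per Ensembl gene, with no scaling. HISAT2 2.0 and the mm10 build are named per the submitters' processing notes. The sources used here do not give the counting tool, the annotation release or the strand setting. All columns of the table were those of the 12 libraries.

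Of 55487 genes, 55227 had a symbol in GENCODE M21 (build GRCm38), the source of exon lengths and coordinates. Counts were fitted in R 4.3.3 with edgeR 4.0.16 (filterByExpr, TMM, glmQLFit robust, 1 mean per group, glmQLFTest). P-values were adjusted by Benjamini-Hochberg over 14509 genes, with a threshold of 0.05. Genes removed by the filter held 0.0815% of counts, and the biological coefficient of variation was 3.65%. The steps were tested on simulated data. Each standard error was derived from the F statistic, as log2 fold change divided by its root. CPM use TMM-scaled library sizes.

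Replicate pairs of a group differed by 1.97 to 4.82 times the sampling noise (chi-square over degrees of freedom), so no library was a duplicate. Correlations between same-numbered libraries of different groups were -0.029 to 0.051 and gave no sign of pairing by number. They cannot settle whether same-numbered libraries were prepared together. Alternatives were DESeq2 1.42.0, DESeq2 size factors, library sizes alone, other filters, fits of 2 groups, a replicate block, glmTreat at 1.5-fold and each library left out.

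The 36 genes, the related lists and the tests were chosen with earlier results of these data known. Values for each library are given for the 6 cytosolic and 4 mitochondrial genes with the largest change called against M0 CM, for Gars, Kars, Eprs, Wars and Wars2, and for genes called in opposite directions. Of each related list, up to 3 genes with the smallest p in TAM CM against M0 CM are named. Atf4, Irf1, Chac1, Eif2ak4 and Ddit3 were added after their values were seen. Some items of these lists are not reported here. Overlaps came from GENCODE exons, and near copies from a nucleotide BLAST search (at least 300 bases at 95% identity). Promoters are those of RefSeq (GRCm38.p6). Figures were drawn with matplotlib 3.10.9.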

Additional observations from a re-analysis of the deposited data

How the results depend on the processing

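Of 80 calls of synthetase genes against M0 CM, 69 kept their call under every alternative run other than the test against a 1.5-fold change, which kept 25 of the 80. The other 11 were lost under at least 1 of the rest: Cars and Dars in M2 CM, Dars, Farsb, Pars2, Qars, Sars2, Vars2 and Wars2 in M1 CM, and Iars2 and Kars in TAM CM. With library sizes alone the Kars change in TAM CM reversed to -0.026 on the log2 scale, not called, and Iars2 was no longer called in TAM CM (log2 fold change 0.04, adjusted p = 0.353). That setting shifted the median of all genes by less than 0.1 on the log2 scale. Tested against a 1.5-fold change (glmTreat), the calls over all genes numbered 1372 (M1 CM against M0 CM), 376 (M2 CM against M0 CM), 3812 (TAM CM against M0 CM), 2982 (TAM CM against M1 CM), 3422 (TAM CM against M2 CM) and 1413 (M2 CM against M1 CM). The cytosolic calls were then 8 (M1 CM against M0 CM), 1 (M2 CM against M0 CM), 9 (TAM CM against M1 CM) and 2 (M2 CM against M1 CM). In TAM CM they numbered 14 against M0 CM and 13 against M2 CM. The mitochondrial calls were 0 (M1 CM against M0 CM), 0 (M2 CM against M0 CM), 2 (TAM CM against M0 CM), 1 (TAM CM against M1 CM), 0 (TAM CM against M2 CM) and 0 (M2 CM against M1 CM). Fewer calls follow from the construction of that test. With each library left out in turn, mitochondrial calls ranged from 4 to 6 in M1 CM against M0 CM (7 with all libraries) and from 4 to 8 in M2 CM against M1 CM (8 with all libraries), and the cause was not tested. All other counts stayed within 1.5 times their value with all libraries under every alternative, 233 values in all. The 14 and 13 cytosolic calls under glmTreat are among these 233. Correlations of same-numbered libraries ran from -0.029 to 0.051 and gave no sign of pairing by number. The fit with the replicate number as a block gave 18, 19 and 19 cytosolic calls in M1 CM, M2 CM and TAM CM against M0 CM and 7, 4 and 13 mitochondrial calls, and changed no call of a synthetase gene. Pars2, Nars2 and Sars2, all under 20 CPM in every library, had the largest standard errors of the 36 genes against M0 CM.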
